A study of Mus musculus with 72 samples.

Results

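In the blood of mice that drank water with lead (Pb), 9 genes needed to build mitochondrial cytochrome c oxidase were followed: Cox16, Cox10, Cox15, Cox17, Sco1, Cox11, Cox19, Surf1 and Cox18. They were chosen by symbol, and they are 9 of the 18194 genes that had a probe set annotated to exactly 1 symbol. The 9 genes had 18 such probe sets, and each gene was read from its probe set of highest mean over the 72 arrays, with the others as a check. Cox16 was singled out with earlier results of these data known, in which it was among only 3 genes called lower at the high dose than in controls after recovery. Its values are therefore described, with no test. The other genes were taken for their function, but they too were proposed with those results in view.

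The mice were female Balb/c mice, 9 weeks old at the start, in groups of 15 by dose. They received lead acetate trihydrate in drinking water at 0 (control), 5 (low dose) or 50 µg/mL (high dose) for 2 weeks, and then all groups drank Pb-free water for 2 weeks. Whole blood was taken by submandibular bleed at the end of each period, called exposure and recovery here. After recovery there were 7 control, 15 low-dose and 13 high-dose arrays, and after exposure 7, 15 and 15. All Pb mice were bled at both times, whereas the labels do not say whether the recovery controls were the control mice bled before. The p-values treat all arrays as separate samples and measure the spread between them.

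Cytochrome c oxidase, the last complex of the respiratory chain, passes electrons from cytochrome c to oxygen. Its catalytic subunits carry heme a groups and copper, which dedicated proteins make, deliver and insert while the complex is put together. In blood, leukocytes, platelets and young red cells hold mitochondria, and mature mammalian red cells do not. Cox10 is the heme O synthase and Cox15 the heme A synthase, which make heme a in sequence. Cox17 is the copper chaperone of the intermembrane space and hands copper to Sco1, which serves the copper site of the Cox2 subunit, and to Cox11, which serves that of Cox1. Cox19 is a small intermembrane-space protein that works with Cox11 in yeast. Surf1 acts early in the assembly of the Cox1 module, and its loss in humans causes Leigh syndrome. Cox18 inserts the tail of Cox2 into the inner membrane. Cox16 joins newly made Cox2 and its copper chaperones in human cells.

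Promoters are shown for Cox16 and for the genes that were higher after recovery than after exposure at every dose (Cox10, Cox19 and Surf1). Each window runs from 250 bases before to 50 bases after a RefSeq transcript start on build GRCm38.p6, written along the gene's own strand. RefSeq windows were at hand for 7 of the 9 genes, 8 windows in all because Cox16 had 2. A pair of motifs was searched on both strands. The first is CCGGAAG, the core bound by ETS factors such as GA-binding protein, whose reverse complement is CTTCCGG. The second, bound by nuclear respiratory factor NRF-1, is GCGCA followed by any base and then GCGC, or its reverse complement. Capitals mark a match to the ETS motif. The Cox16 window lies at chr12:81485088-81485387, that of Cox10 at chr11:64079423-64079722, that of Surf1 at chr2:26916481-26916780 and that of Cox19 at chr5:139345117-139345416, all on the minus strand.
Cox16: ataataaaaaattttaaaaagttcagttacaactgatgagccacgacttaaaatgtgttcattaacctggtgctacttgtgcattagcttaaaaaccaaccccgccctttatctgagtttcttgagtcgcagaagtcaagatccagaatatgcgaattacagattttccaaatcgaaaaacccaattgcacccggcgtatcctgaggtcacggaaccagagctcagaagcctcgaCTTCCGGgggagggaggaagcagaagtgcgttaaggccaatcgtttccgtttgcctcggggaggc
Cox10: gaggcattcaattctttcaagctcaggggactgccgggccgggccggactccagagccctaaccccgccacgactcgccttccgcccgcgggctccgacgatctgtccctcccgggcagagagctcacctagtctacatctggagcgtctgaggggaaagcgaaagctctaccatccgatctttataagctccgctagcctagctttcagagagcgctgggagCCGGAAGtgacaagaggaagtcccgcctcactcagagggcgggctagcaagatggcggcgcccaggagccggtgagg
Surf1: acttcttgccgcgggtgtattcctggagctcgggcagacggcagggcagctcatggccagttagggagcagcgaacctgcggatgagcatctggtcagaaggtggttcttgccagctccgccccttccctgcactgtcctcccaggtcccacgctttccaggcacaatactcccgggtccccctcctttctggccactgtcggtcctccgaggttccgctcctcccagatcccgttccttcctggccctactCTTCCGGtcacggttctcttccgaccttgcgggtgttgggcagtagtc
Cox19: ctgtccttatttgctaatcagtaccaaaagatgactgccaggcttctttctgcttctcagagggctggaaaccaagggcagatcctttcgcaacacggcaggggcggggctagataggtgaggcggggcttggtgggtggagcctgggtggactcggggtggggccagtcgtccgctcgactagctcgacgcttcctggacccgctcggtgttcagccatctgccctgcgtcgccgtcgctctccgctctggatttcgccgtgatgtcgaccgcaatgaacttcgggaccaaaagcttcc

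The ETS motif began 15 bases before the start in this Cox16 window, 27 bases before it in Cox10 and 2 bases after it in Surf1. It was also found in the other Cox16 window, in Cox15 and in Sco1, and it was not found in Cox11 or Cox19. It thus stood in 6 of 8 windows and 5 of 7 genes, against 8.86% of all 32851 mouse promoter windows and 15.95% of the 12935 windows of the genes tested below. The NRF-1 motif was in 0 of the 8 windows, against 4.6% of all windows and 9.04% of those of the genes tested. A match is only a match of letters, and binding was not measured.

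The deposited values are log2 levels, normalised across arrays by robust multi-array averaging. Array medians lay between 4.05 and 4.22, arrays correlated between 0.958 and 0.995 over all probe sets, and 0 pairs of arrays were identical. Genes were tested when they exceeded 4.14, the median of all values, in at least 7 arrays, which 12589 genes did. Of the 9 genes, 8 exceeded it on all 72 arrays. Sco1 exceeded it on 0 arrays (lowest 2.72, highest 4.05) and was not tested, so counts below are over the 7 others beside Cox16. Levels are given for each gene on its own and are not set against those of another gene, because probes differ in brightness. Markers of B cells, T cells, cytotoxic cells, monocytes, neutrophils, platelets and young red cells were all measured in this blood, with 6 to 9 genes tested from each list.

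On GRCm38.p6, Cox10 lies on chromosome 11 from 63962627 to 64079472, Surf1 on chromosome 2 from 26913378 to 26916610, Cox19 on chromosome 5 from 139337822 to 139345166 and Cox15 on chromosome 19 from 43733254 to 43753000, all on the minus strand. Cox11 (90638184 to 90645977) and Sco1 (67052600 to 67067444) also lie on chromosome 11, on the plus strand, Cox18 on chromosome 5 (90214724 to 90224595) and Cox17 on chromosome 16 (38346983 to 38352763). RefSeq annotates overlapping genes at Cox10 (9630013K17Rik and Gm51866), Surf1 (Surf2), Cox15 (Entpd7), Cox11 (Tom1l1) and Sco1 (Adprm), none of which shared a probe set with them by annotation.

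After recovery, the Cox16 level was lower in the blood of both Pb groups than in controls. In controls its log2 level was 6.90 at the lowest, 7.35 at the median and 8.30 at the highest, in low-dose mice 6.59, 6.88 and 7.54, and in high-dose mice 6.67, 6.80 and 7.09. The groups overlapped: 8 of 13 high-dose arrays and 8 of 15 low-dose arrays lay below the lowest control, and 5 of 7 control arrays lay above the highest high-dose array. The high-dose mean of 6.85 ± 0.16 (SD, n = 13) was lower than the control mean of 7.42 ± 0.46 (SD, n = 7), a difference of -0.57 ± 0.10 (SE), or 0.675 of the control level. The low-dose mean of 6.96 ± 0.26 (SD, n = 15) differed from the same controls by -0.46 ± 0.10 (SE), or 0.728 of their level. Both differences rest on the same 7 control arrays and are not separate observations. Between the doses the difference was small, -0.11 ± 0.08 (SE) for high against low, and 0 of 13 high-dose arrays lay below the lowest low-dose array.

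**Figure D1:**
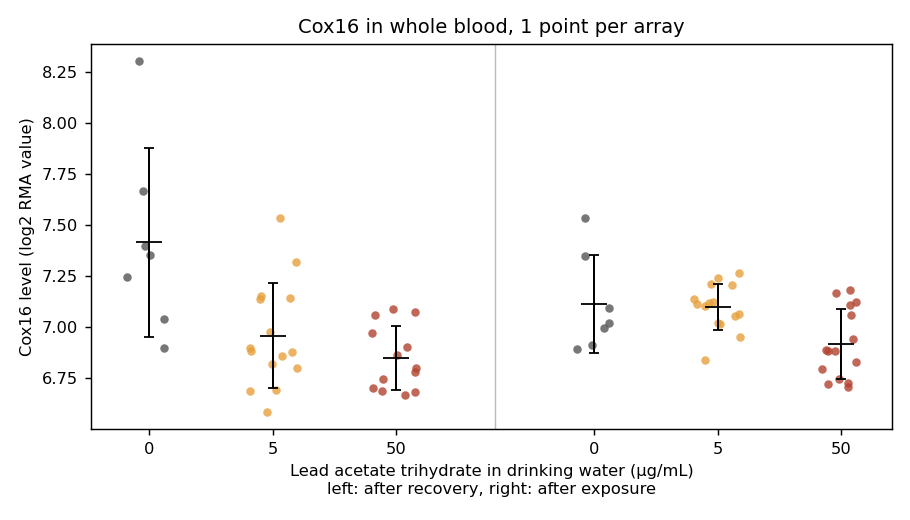
Cox16 log2 level on each array, after recovery (left) and after exposure (right), at 0, 5 and 50 µg/mL Pb, with each group's mean and SD. The recovery controls spread from 6.90 to 8.30, and the high-dose arrays after recovery from 6.67 to 7.09.

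The recovery controls were spread more widely in Cox16 than any other group. Their 7 values were 6.90, 7.04, 7.35, 8.30, 7.25, 7.67 and 7.40 for replicates 1 to 7, and replicates 4 and 6 were the highest and second highest of all 72 arrays. Without replicate 4 the control mean was 7.27 ± 0.27 (SD, n = 6), and the differences were -0.42 at the high dose and -0.31 at the low dose. Over all genes, replicate 4 had a median absolute deviation from the recovery controls of 0.246, against 0.114 to 0.179 on the other 6 arrays, while the share of genes more than 1 away was 0.151% on replicate 4 and 0.238% on replicate 3, the highest. Its array median of 4.20 ranked 6 of 72, its interquartile range of relative log expression ranked 18, and its marker means ranked between 24 and 60. The part of this array in the Cox16 difference beyond the values above was not tested.

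The 2 dimmer Cox16 probe sets set the same arrays apart. The brighter of them, whose mean over 72 arrays was 2.91, read 4.60 on control replicate 4 and 3.40 on replicate 6, its highest and second highest values. The dimmest, with a mean of 0.909, read 1.68 and 1.47 on them, again its 2 highest values. Against recovery controls, the brighter gave -0.31 at the high dose and -0.38 at the low dose, and the dimmest -0.16 and -0.10. The brighter exceeded the median of all values on 1 array and the dimmest on 0 arrays, a range where differences on this scale are compressed.

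A few blood cell markers differed between high-dose mice and controls after recovery. Of 8 platelet markers, 3 were higher at the high dose than in controls, with a mean level of 10.58 ± 0.20 (SD, n = 13) in high-dose mice and 10.25 ± 0.16 (SD, n = 7) in controls (limma, adjusted p under 0.05 for each gene counted). Of 9 markers of young red cells 1 was higher, with a mean level of 8.69 ± 0.28 at the high dose and 8.34 ± 0.23 in controls, and 0 of 7 B cell, 6 T cell or 6 monocyte markers were called. Over all genes, 0.429% were called in this comparison, 0.405% higher and 0.0238% lower. At the low dose after recovery 0 markers of any list were called against control, where 0% of all genes were called. With the means of all 7 marker lists as covariates the Cox16 difference was -0.56 at the high dose and -0.49 at the low dose, and with the array median as a covariate it was -0.54 and -0.46. In whole blood, fewer cells of a type and less RNA per cell cannot be told apart.

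After exposure, by its chosen probe set, Cox16 was near the control level at the low dose and somewhat below it at the high dose. Its log2 level was 6.89, 7.02 and 7.53 (lowest, median, highest) in controls, 6.84, 7.12 and 7.27 at the low dose and 6.71, 6.88 and 7.18 at the high dose. Of the 15 high-dose arrays, 9 lay below the lowest control, and of the 15 low-dose arrays, 1 did. The high-dose mean of 6.92 ± 0.17 (SD, n = 15) differed from the control mean of 7.11 ± 0.24 (SD, n = 7) by -0.20 ± 0.10 (SE), and by -0.13 without control replicate 1. The low-dose mean of 7.10 ± 0.11 (SD, n = 15) differed from the controls by -0.02 ± 0.10 (SE). High against low dose gave -0.18 ± 0.08 (SE), with 6 of 15 high-dose arrays below every low-dose array. The dimmer Cox16 probe sets did not show the high-dose difference from control. They gave 0.04 and 0.02 there, opposite in sign to the chosen one, and -0.05 each for high against low dose. With marker means as covariates the differences of the chosen probe set were -0.05 (high against control), 0.02 (low against control) and -0.08 (high against low). With array weights low against control was 0.06.

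Set against exposure, the recovery level of Cox16 was higher in controls and slightly lower in both Pb groups. Recovery minus exposure was 0.30 ± 0.12 (SE) in controls, -0.14 ± 0.08 at the low dose and -0.07 ± 0.08 at the high dose. The control difference was 0.15 without control replicate 4 of the recovery collection. The difference from control was thus more negative after recovery than after exposure, by -0.44 ± 0.14 (SE) at the low dose and -0.37 ± 0.15 at the high dose, and by -0.29 and -0.22 without that replicate. With marker means as covariates the difference between collections within a dose group (recovery minus exposure) was 0.17 in controls, -0.33 at the low dose and -0.33 at the high dose, and after quantile normalization it was 0.21, -0.20 and -0.16.

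In order of the group mean, Cox16 stood at 7.42 in recovery controls, 7.11 in exposure controls, 7.10 at the low dose after exposure, 6.96 at the low dose after recovery, 6.92 at the high dose after exposure and 6.85 at the high dose after recovery. Only the first step of this order, 0.30, exceeded the SD within groups of 0.23, and without replicate 4 of the recovery controls it was 0.15. Each later step between neighbours was smaller than that SD, which is the spread of single arrays and not the error of a difference in means.

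Cox16 lies on chromosome 12 from 81358852 to 81485137 of GRCm38.p6, on the minus strand. RefSeq also places there a longer protein-coding model, Gm20498, from 81358852 to 81532911, which spans both Cox16 and its neighbour Synj2bp (81492194 to 81532911). No probe set was annotated to Gm20498 alone, so the files cannot say which of these transcripts the Cox16 probe set reads. Synj2bp, which encodes an outer mitochondrial membrane protein, did not show the Cox16 pattern. Against recovery controls it gave -0.15 at the high dose (limma, adjusted p = 0.60) and -0.05 at the low dose (adjusted p = 1.0). It was higher after recovery than after exposure in all dose groups, by 0.64 ± 0.12 (SE) in controls, 0.53 ± 0.08 at the low dose and 0.52 ± 0.09 at the high dose (limma, adjusted p = 3.7e-05, 6.1e-07 and 9.8e-07). Slc8a3, the neighbour on the other side, was below the filter.

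The genes whose levels followed Cox16 most closely over the 72 arrays were Med11 (r = 0.62), a Mediator subunit, Sc5d (0.59), a sterol desaturase, Usp16 (0.58), a histone H2A deubiquitinase, Taf1b (0.57), an RNA polymerase I factor, and Ccdc69 (0.57). Their r after subtracting group means was 0.60, 0.56, 0.55, 0.55 and 0.51, and without control replicate 4 it was 0.70, 0.64, 0.78, 0.64 and 0.66. The lowest r were -0.55 for 0610010F05Rik, -0.51 for Trip10 and -0.49 for Gstm3, and the median over all genes was 0.11. These arrays share blood composition and array scale, so the values describe likeness only. Against recovery controls, the 5 most alike genes gave -0.12 (Med11) to -0.25 (Sc5d) at the high dose.

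Between a Pb dose and control, 0 of the 7 other genes passed the threshold of an adjusted p under 0.05 in any of the 4 comparisons. After recovery the high dose gave 0 of 7 calls, where 0.429% of all genes were called (0.405% higher and 0.0238% lower), and 2 genes had an unadjusted p under 0.05. The low dose gave 0 of 7, where 0% of all genes were called, and 0 had an unadjusted p under 0.05. After exposure the high dose gave 0 of 7 (0.0238% of all genes) and the low dose 0 of 7 (1.3%, with 1.11% higher and 0.191% lower), with 1 gene each at an unadjusted p under 0.05. The 7 genes differed in how near to control they stayed.

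For the heme a enzymes, Cox15 was 4.36, 4.62 and 4.91 (lowest, median, highest) at the high dose after recovery, against 4.64, 4.76 and 5.10 in controls. Of the 13 high-dose arrays 8 lay below every control, and the difference was -0.20 ± 0.10 (SE; limma, adjusted p = 0.43). Cox10 differed by only -0.05 ± 0.07 from the same controls (adjusted p = 0.77). After exposure Cox15 at the low dose was 0.21 ± 0.09 above control (limma, adjusted p = 0.33), with 6 of 15 arrays above every control, and Cox10 was -0.04 ± 0.07. The dimmer Cox15 probe sets, of mean 3.75, 3.47 and 2.98, gave -0.07, -0.04 and 0.12 at the low dose after exposure. For the high dose after recovery they gave 0.06, -0.27 and -0.28.

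Of the copper-delivery genes, Cox11 gave a high-dose difference from control of -0.21 ± 0.10 (SE) after recovery (limma, adjusted p = 0.40) and of -0.20 ± 0.10 after exposure (adjusted p = 0.49). Its high-dose levels after recovery were 4.72, 5.08 and 5.49 and those of controls 5.03, 5.35 and 5.53, so the groups overlapped over most of their range. Cox19, its partner in yeast, gave -0.09 ± 0.08 after recovery and -0.03 ± 0.08 after exposure at the high dose. Cox17, the chaperone upstream, lay above control after recovery at the high dose by 0.17 ± 0.15 (adjusted p = 0.68), within its wide spread.

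Sco1 read low throughout. At the high dose after exposure it was 2.72, 3.16 and 3.61, against 3.14, 3.41 and 4.03 in controls, a difference of -0.35 in the means, with 6 of 15 arrays below every control. After recovery the high-dose difference was -0.08 and the low-dose difference -0.09. Fitted without the filter, none of the 4 differences from control passed (limma, adjusted p = 0.29 for the high dose after exposure, the lowest of them).

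Among the remaining factors, the differences of Surf1 from control were -0.05 ± 0.08 (SE) at the high dose and 0.03 ± 0.08 at the low dose after recovery, and 0.00 ± 0.08 and 0.06 ± 0.08 after exposure. Cox18 gave -0.08 ± 0.07 and -0.01 ± 0.07 after recovery, and -0.14 ± 0.07 and -0.07 ± 0.07 after exposure, none past the threshold. The tests of whether a dose effect differed between recovery and exposure called 0 of 7 genes at the high dose (0.00794% of all genes) and 0 of 7 at the low dose (0.0238%), and 0 of them had an unadjusted p under 0.05 at either dose.

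**Figure D2:**
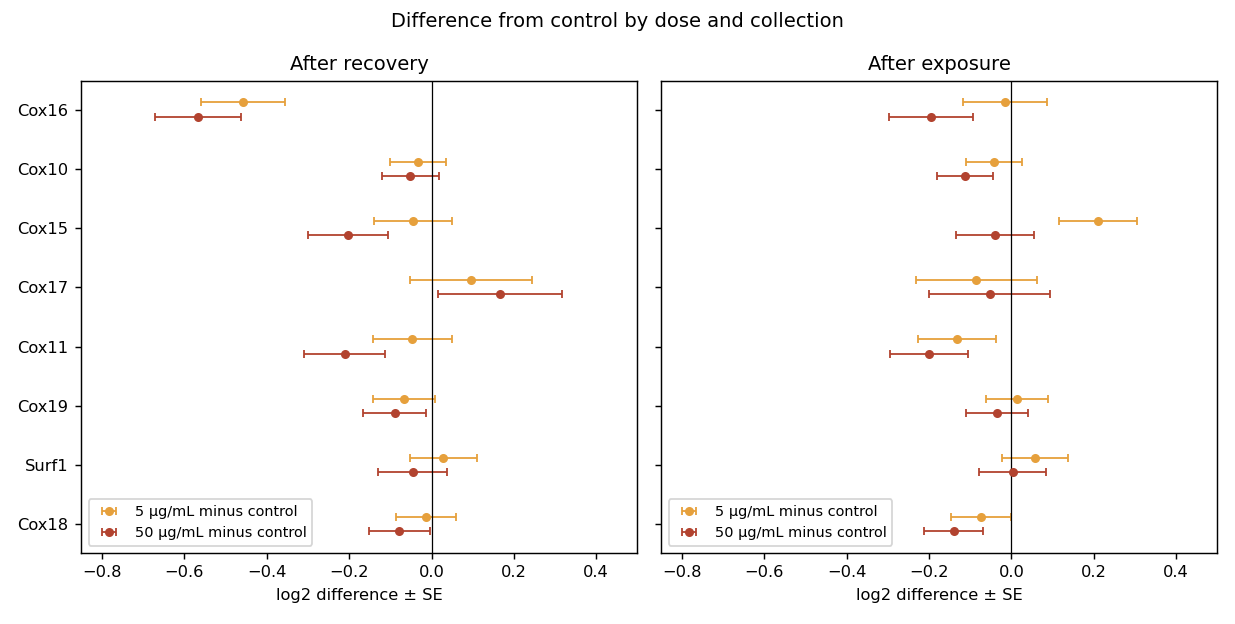
Log2 difference from control with its SE for each tested gene and Cox16, at 5 and 50 µg/mL, after recovery (left) and after exposure (right). After recovery Cox16 stands at -0.46 and -0.57, while the other genes lie between -0.21 and 0.17.

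Between the doses, 1 of 7 genes was called after exposure, where 18.7% of all genes were called, 6.04% higher and 12.6% lower at the high dose. This was Cox15, at 4.15, 4.54 and 4.89 at the high dose and 4.53, 4.74 and 5.00 at the low dose. Of 15 high-dose arrays 7 lay below every low-dose array, and Cox15 fell by 0.25 ± 0.08 (SE; limma, adjusted p = 0.016). The chosen Cox15 probe set is of a type whose probes may also match other sequences. Of its 3 dimmer probe sets, with means of 2.98, 3.47 and 3.75 over 72 arrays, the first gave -0.32 and the second -0.35 here, and the third 0.06. Sco1 lay below the filter and is not in this count. Fitted without the filter, it gave -0.23 ± 0.08 (SE) in the same comparison (limma, adjusted p = 0.047).

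Blood cell marker levels differed with dose in the same comparison. All 7 B cell markers tested, 5 of 6 monocyte, 2 of 6 neutrophil and 1 of 6 T cell markers were lower at the high dose after exposure. Of the platelet markers 5 of 8 were higher, and of the red cell markers 4 of 9. Over all genes, 12.6% were called lower and 6.04% higher. The B cell mean was 8.05 to 9.14 in high-dose mice and 8.80 to 9.77 in low-dose mice. With marker means as covariates the Cox15 difference was -0.02 (adjusted p = 0.94). After recovery 0 of 7 genes differed between the doses (0% of all genes were called), and 2 had an unadjusted p under 0.05, Cox11 (-0.16 ± 0.08, SE) and Cox15 (-0.16 ± 0.08).

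The larger changes in these genes were between the collections. Cox10, Cox19 and Surf1 were higher after recovery than after exposure in control, low-dose and high-dose mice alike, as 18.8% of all genes were, and 0 of the 7 were lower in all of them, as 7.77% of all genes were. In controls 4 of 7 genes rose and 0 fell, where 36.1% of all genes were called, 22.5% higher and 13.6% lower. In low-dose mice 4 of 7 rose and 0 fell (44.1% called, 26.2% higher and 17.9% lower), and in high-dose mice 3 of 7 rose and 0 fell (49.2% called, 29.4% higher and 19.8% lower). The median of the 7 differences was 0.23 in controls, 0.15 in low-dose mice and 0.14 in high-dose mice, and that of all genes -0.012, -0.0040 and -0.0046. Over all genes the direction changed with the scale: in high-dose mice 3695 of 6189 calls were upward with the deposited values, and 3209 of 6686 after quantile normalization.

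**Figure D3:**
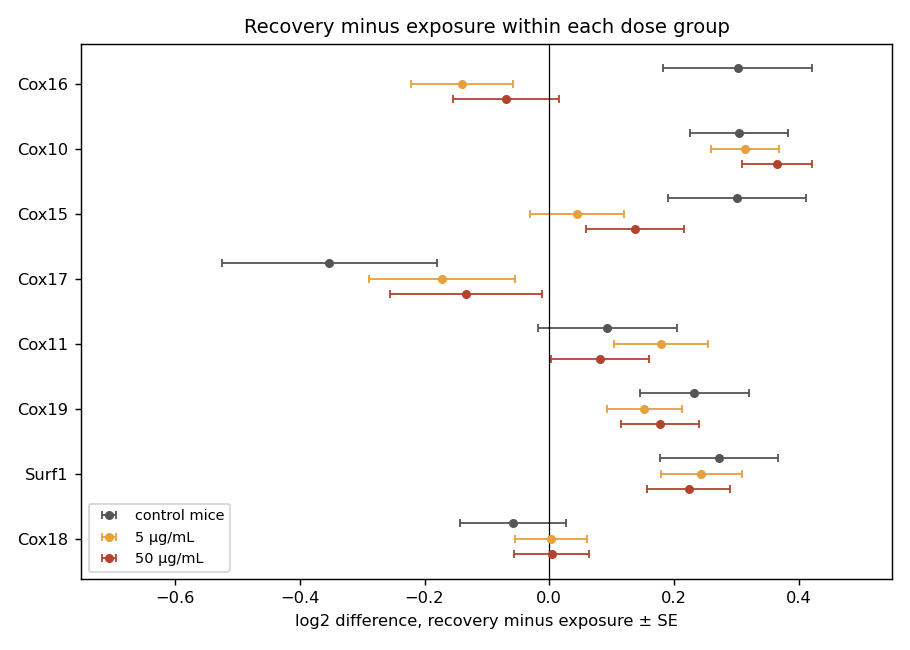
Log2 difference, recovery minus exposure, with its SE, in control, low-dose and high-dose mice for each tested gene and Cox16. Cox10, Cox19 and Surf1 lie above 0 in each dose group, between 0.15 and 0.37, and Cox17 lies below 0, between -0.35 and -0.13.

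Cox10, which makes heme O, showed the widest separation in the Pb groups. After recovery its log2 level was 5.88, 6.11 and 6.36 (lowest, median, highest) in controls, 5.86, 6.11 and 6.28 at the low dose and 5.79, 6.02 and 6.32 at the high dose. After exposure it was 5.67, 5.77 and 6.02 in controls, 5.54, 5.76 and 5.92 at the low dose and 5.44, 5.64 and 5.96 at the high dose. Most recovery arrays thus lay above every exposure array of their dose, 4 of 7 in controls, 12 of 15 at the low dose and 11 of 13 at the high dose. The differences were 0.30 ± 0.08 (SE) in controls, 0.31 ± 0.05 at the low dose and 0.37 ± 0.06 at the high dose (limma, adjusted p = 0.0017, 2.3e-06 and 1.6e-07). Its other 2 probe sets were dimmer and gave 0.08, 0.13 and 0.16 (mean 5.03 over 72 arrays) and 0.17, 0.05 and 0.25 (mean 3.93) in the same order.

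Surf1, the factor of the Cox1 module, was 7.10, 7.59 and 7.79 in controls, 7.22, 7.60 and 7.86 at the low dose and 7.25, 7.44 and 7.67 at the high dose after recovery. After exposure it was 6.97, 7.26 and 7.50 in controls, 7.08, 7.31 and 7.49 at the low dose and 6.98, 7.23 and 7.52 at the high dose. The collections overlapped in every dose group, with 4 of 7 control, 10 of 15 low-dose and 6 of 13 high-dose arrays after recovery above every exposure array. The differences were 0.27 ± 0.09 (SE) in controls, 0.24 ± 0.06 at the low dose and 0.22 ± 0.07 at the high dose (limma, adjusted p = 0.019, 0.0014 and 0.0043). The control call was lost without control replicate 5 or 7 of the exposure collection or replicate 3 or 7 of the recovery collection (adjusted p up to 0.066), and when only the control groups were fitted (0.079).

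Cox19, the small copper-pathway protein, overlapped more than Cox10 and Surf1 in the Pb groups and less in controls. After recovery its level was 6.45, 6.65 and 6.98 in controls, 6.33, 6.67 and 6.87 at the low dose and 6.43, 6.60 and 6.89 at the high dose, and after exposure it was 6.36, 6.46 and 6.57, 6.18, 6.47 and 6.73, and 5.99, 6.50 and 6.69 in the same dose order. In controls 6 of 7 recovery arrays lay above every exposure array, in low-dose mice 4 of 15 and in high-dose mice 2 of 13. The differences were 0.23 ± 0.09 (SE) in controls, 0.15 ± 0.06 at the low dose and 0.18 ± 0.06 at the high dose (limma, adjusted p = 0.031, 0.033 and 0.015). These calls were lost under quantile normalization (differences of 0.14, 0.091 and 0.096) and under median centring (0.17, 0.11 and 0.11). With array weights the high-dose call was lost (0.12, limma, adjusted p = 0.062). The control call was also lost without control replicate 5 or 7 of the exposure collection or replicate 3 or 7 of the recovery collection (adjusted p up to 0.11). The low-dose call was lost without any 1 of 7 of its 30 arrays, replicates 11 and 15 after exposure and 1, 3, 4, 6 and 15 after recovery (adjusted p up to 0.069).

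The other calls were each in 1 dose group. Cox11 rose by 0.18 ± 0.08 (SE) in low-dose mice, to 4.89, 5.33 and 5.64 after recovery, against 4.64, 5.14 and 5.42 after exposure (limma, adjusted p = 0.048), with 5 of 15 recovery arrays above every exposure array. It was lost on leaving out any 1 of 16 of the 30 low-dose arrays (adjusted p up to 0.11), with no filter (0.062), after quantile normalization (0.10), after median centring (0.067) and with the array median as a covariate (0.12). Cox15 rose by 0.30 ± 0.11 in controls, to 4.64, 4.76 and 5.10 after recovery, against 4.16, 4.54 and 4.79 after exposure (adjusted p = 0.028), with 3 of 7 arrays above every exposure array. It was lost without control replicate 5 or 6 of the exposure collection or replicate 2 or 7 of the recovery collection (adjusted p up to 0.095), and with the array median as a covariate (0.19, adjusted p = 0.076). The Cox15 probe set of mean 3.75 gave -0.27 in controls, opposite to the chosen one, and the other 2 gave 0.31 and 0.30.

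Cox17 and Cox18 did not pass in any dose group with the deposited values and equal weights. For the Cox17 chaperone gene recovery minus exposure was -0.35 ± 0.17 (SE) in controls, -0.17 ± 0.12 at the low dose and -0.13 ± 0.12 at the high dose (limma, adjusted p = 0.098, 0.23 and 0.36). In controls it was 7.69, 8.23 and 8.42 after recovery, against 7.99, 8.36 and 8.87 after exposure, with 3 of 7 recovery arrays below every exposure array. The control difference passed after quantile normalization (-0.41, adjusted p = 0.032), after median centring (-0.42, 0.041), with the array median as a covariate (-0.46, 0.022) and without control replicate 1 of the exposure collection (-0.43, 0.048). The high-dose difference of Cox17 passed with array weights (-0.28, 0.040). The chosen Cox17 probe set is of a type shared between transcripts. The other, with a mean of 2.77, exceeded the median of all values on 0 arrays. It gave 0.04 in controls, -0.03 at the low dose and -0.08 at the high dose. Cox18, the inserter of Cox2, gave -0.06 ± 0.08 (SE) in controls, 0.0023 ± 0.06 at the low dose and 0.0037 ± 0.06 at the high dose, and its control difference passed after quantile normalization (-0.16, adjusted p = 0.040). Sco1 gave -0.03 in controls, -0.0032 at the low dose and 0.24 at the high dose, and fitted without the filter only the high-dose value passed (adjusted p = 0.018).

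**Figure D4:**
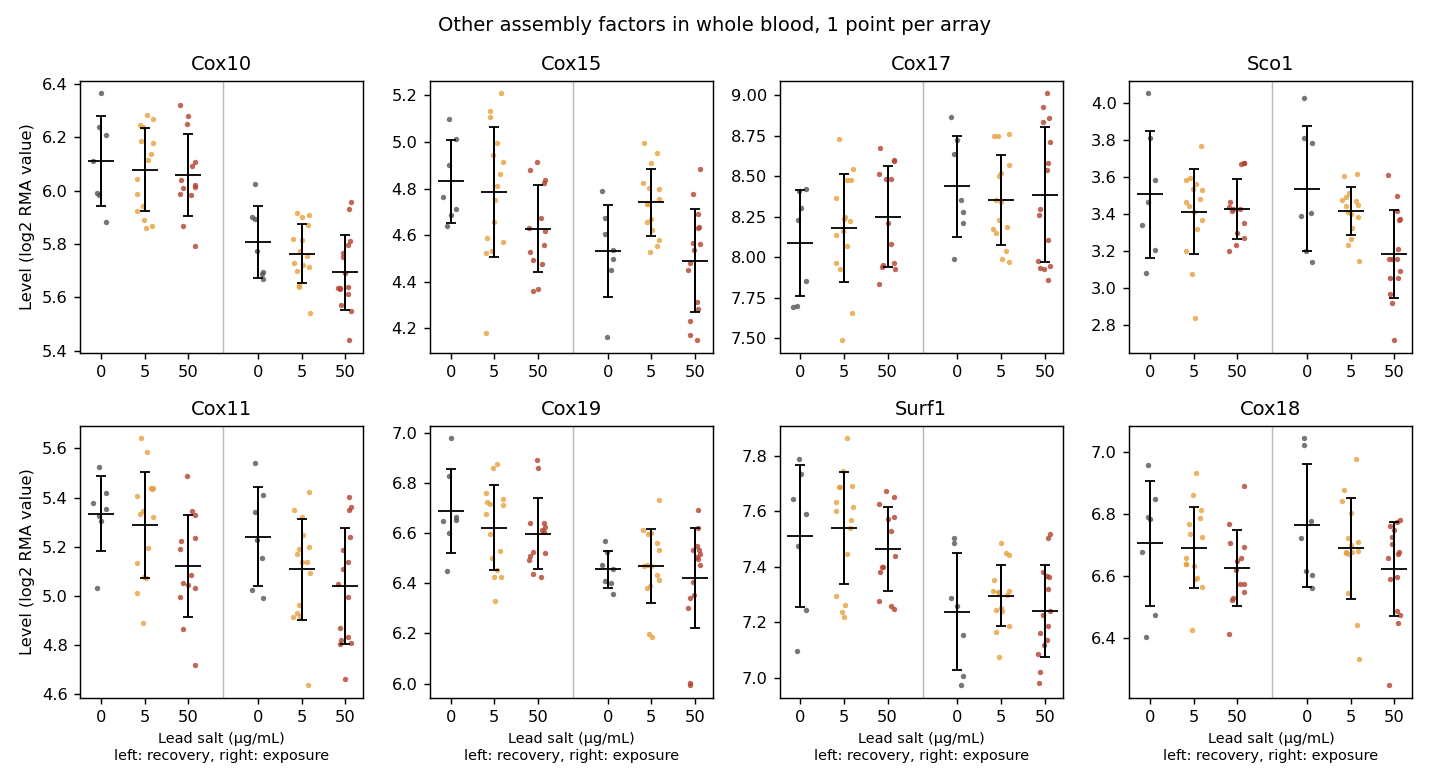
Log2 level of the 8 other genes on each array, after recovery and after exposure, at 0, 5 and 50 µg/mL Pb, with group means and SD, each panel on its own scale. Cox10 stands higher after recovery at every dose, with means of 6.11, 6.08 and 6.06 against 5.81, 5.76 and 5.69 after exposure.

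The collections differed in blood cell marker levels and RNA measures too. After recovery, 7 of 7 B cell markers were higher in controls, 6 of 7 in low-dose mice and 7 of 7 in high-dose mice, and 5, 6 and 7 of 9 red cell markers were lower in the same order. Of all genes, 22.5%, 26.2% and 29.4% were called higher and 13.6%, 17.9% and 19.8% lower in that order. The B cell mean in high-dose mice was 9.20 to 9.83 after recovery and 8.05 to 9.14 after exposure, and the red cell mean was 8.21 to 9.29 and 8.56 to 9.64. The difference between 3' and 5' probe sets of beta-actin averaged 0.68, 0.67 and 0.65 in controls, at the low dose and at the high dose after recovery, against 0.37, 0.44 and 0.48 after exposure. The 18S ribosomal RNA level averaged 6.38, 6.33 and 6.43 after recovery, against 7.00, 7.00 and 7.79 after exposure. With marker means as covariates Cox10 still passed at the high and the low dose, but not in controls (0.18, adjusted p = 0.085), and Surf1, Cox19, Cox11 and Cox15 passed in no dose group. Collection and age of the mice cannot be told apart.

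Within groups, all pairs of these genes had positive correlations from array to array, of differing strength. After subtracting group means, over 72 arrays, Surf1 had r = 0.75 with Cox10, 0.70 with Cox19 and 0.68 with Cox18. Cox16 had r between 0.21 and 0.41 with Cox10, Cox15, Cox11, Cox19, Surf1 and Cox18. Cox17 had r between 0.01 (Cox16) and 0.29 (Cox19) with the other genes.

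The same deviations also followed cell markers and array scale. The T cell marker mean had r = 0.82 with Surf1, 0.77 with Cox10, 0.69 with Cox18 and 0.49 with Cox16. Cox17 instead had its highest r, 0.52, with the red cell markers, where the other genes ranged from -0.44 (Cox11) to -0.11 (Cox15). The array median had r = -0.86 with Surf1, -0.71 with Cox10 and -0.44 with Cox16. These are descriptions of arrays that share composition and scale, and the part of each in the correlations between genes was not tested.

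**Figure D5:**
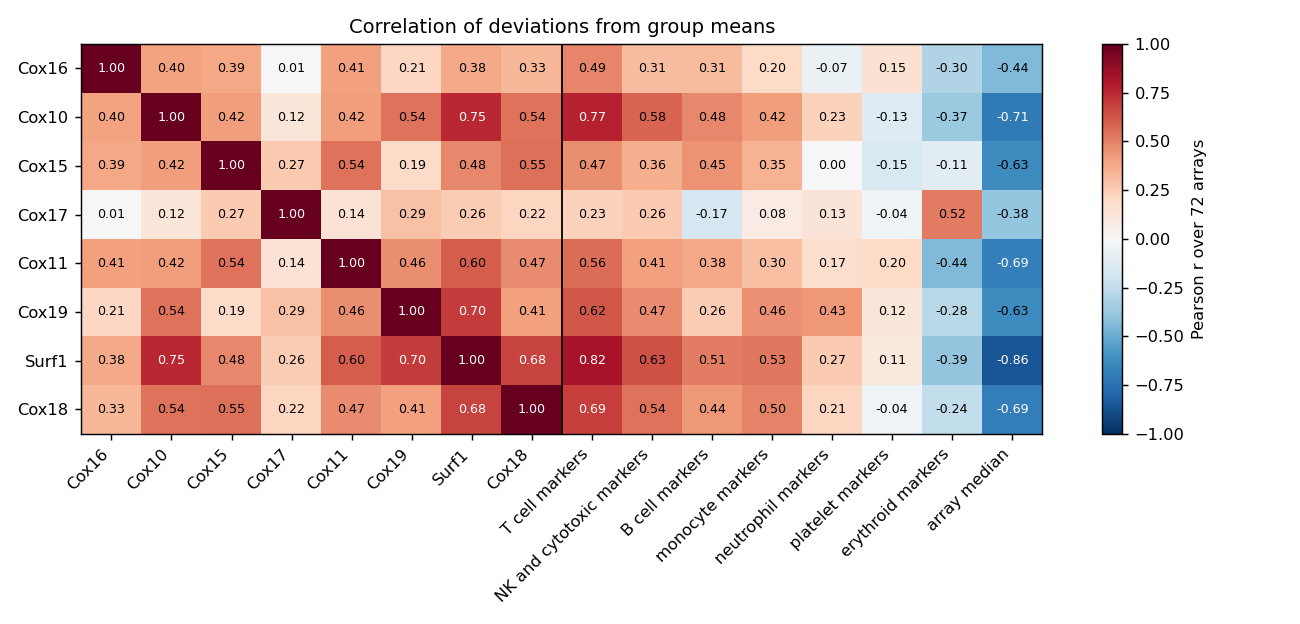
Pearson r over 72 arrays between deviations from group means, among the 8 genes above the filter (left of the line) and with cell marker means and the array median (right of it). Surf1 and Cox10 correlate at 0.75, and Cox17 correlates with the other genes at 0.29 or less.

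Other factors of cytochrome oxidase assembly gave no calls between either dose and control and calls in both directions between collections. Of 23 such factors, 19 were tested, and 0 were called in the 4 comparisons with control, where 0% to 1.3% of all genes were called. The list medians were -0.05 at the high dose and -0.05 at the low dose after recovery, and -0.06 and -0.03 after exposure. Between recovery and exposure, 1 rose and 2 fell in controls, 4 rose and 3 fell in low-dose mice, and 5 rose and 4 fell in high-dose mice. Over all genes, 22.5% rose and 13.6% fell in controls, 26.2% and 17.9% in low-dose mice, and 29.4% and 19.8% in high-dose mice. Smim20, also known as Mitrac7, rose by 0.27 ± 0.06 (SE) in high-dose and 0.24 ± 0.05 in low-dose mice (limma, adjusted p = 4.9e-05 and 0.00019). Cox20, a Cox2 chaperone, fell by 0.20 ± 0.07 in controls, 0.19 ± 0.05 in low-dose and 0.17 ± 0.05 in high-dose mice (adjusted p = 0.032, 0.0017 and 0.0054). Timm21, which links the protein import machinery to respiratory chain assembly, fell by 0.31 ± 0.07 in high-dose and 0.29 ± 0.07 in low-dose mice. Between the doses after exposure, 1 of the 19 was called, where 18.7% of all genes were. This was Cmc2, a twin-cysteine protein named after its values were seen (0.16 ± 0.05 higher at the high dose, limma, adjusted p = 0.034).

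The subunits of the oxidase itself moved in both directions between collections. Of 13 nuclear-encoded subunits tested, 3 rose and 5 fell in controls. In low-dose mice 4 rose and 6 fell, and in high-dose mice 4 rose and 6 fell. Against control 0 were called at either dose and collection, where 0% to 1.3% of all genes were called. The share of all genes called between collections was 36.1% in controls, 44.1% in low-dose and 49.2% in high-dose mice. Cox5b rose by 0.31 ± 0.07 (SE), 0.26 ± 0.04 and 0.28 ± 0.05 in control, low-dose and high-dose mice, and Cox6b1 by 0.25 ± 0.08, 0.41 ± 0.05 and 0.32 ± 0.06. Cox6c fell by 0.35 ± 0.08, 0.42 ± 0.06 and 0.31 ± 0.06 (limma, adjusted p at most 0.0099 for each of these). Between the doses after exposure, 1 of the 13 was called, where 18.7% of all genes were. This was Cox6b2, a subunit form known from testis and named here after its values were seen. It was 0.35 ± 0.09 higher at the high dose (limma, adjusted p = 0.003).

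Of 11 copper-handling genes tested, 0 were called against control at either dose and collection, where 0% to 1.3% of all genes were called. After recovery 1 was higher and 0 lower than after exposure in controls, 4 and 3 in low-dose mice, and 2 and 1 in high-dose mice. Of all genes, 36.1%, 44.1% and 49.2% were called in these comparisons. Slc25a3, the mitochondrial phosphate and copper carrier, rose by 0.24 ± 0.09 (SE), 0.16 ± 0.06 and 0.26 ± 0.07 in control, low-dose and high-dose mice (limma, adjusted p = 0.037, 0.036 and 0.00058). Between the doses after exposure 1 of the 11 was called, where 18.7% of all genes were. This was again Slc25a3, lower at the high dose than at the low (-0.21 ± 0.06, limma, adjusted p = 0.017). The copper exporter gene Atp7a fell by 0.25 ± 0.08 in high-dose and 0.26 ± 0.08 in low-dose mice, and was at -0.01 ± 0.12 in controls.

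Assembly factors of other respiratory complexes were called in both directions between collections, as were all genes (22.5% higher and 13.6% lower in controls, 26.2% and 17.9% in low-dose mice, and 29.4% and 19.8% in high-dose mice, a lean that changed with scaling as given above). Of 22 tested, 7 rose and 3 fell in controls, 8 rose and 2 fell in low-dose mice, and 9 rose and 2 fell in high-dose mice, with medians of 0.04, 0.11 and 0.09. Ttc19, a factor of complex III, rose by 0.74 ± 0.12 (SE), 0.55 ± 0.08 and 0.54 ± 0.08 in control, low-dose and high-dose mice, and Bcs1l, the translocase of its Rieske protein, by 0.28 ± 0.10, 0.38 ± 0.07 and 0.47 ± 0.07. Of the factors of complex I, Ndufaf3 rose by 0.34 ± 0.10, 0.32 ± 0.07 and 0.46 ± 0.07 in the same order of groups. Ecsit rose by 0.35 ± 0.11, 0.31 ± 0.08 and 0.44 ± 0.08 (limma, adjusted p at most 0.028 for each of these). Against control, 0 of the 22 were called at either dose and collection, where 0% to 1.3% of all genes were called. Between the doses after exposure 2 of the 22 were called, where 18.7% of all genes were, 12.6% lower at the high dose. Ndufaf1 (-0.31 ± 0.09), named like Cox6b2 after its values were seen, and Bcs1l (-0.22 ± 0.07) were lower at the high dose (limma, adjusted p = 0.0074 and 0.024).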

How the data were processed

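Whole-blood RNA was depleted of globin transcripts, amplified and biotin-labelled, per the labels' protocols. The deposited log2 values were made by the authors with RMA, per the submitters' processing notes. Its version is not given in the sources used here. In all, 45101 probe sets were measured on 72 arrays, whose number limits the precision. Columns of other samples numbered 0. Probe sets were named through GEO's platform annotation, and only those with exactly 1 symbol were used.

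From these values, the 1-symbol probe set of highest mean over 72 arrays represented each gene. Of 18194 genes, 12589 lay above the median of all values (4.14) in at least 7 arrays and were tested. Group means were fitted with limma 3.58.1 in R 4.3.3 with 66 residual degrees of freedom, and p-values of each of 11 comparisons were adjusted by the Benjamini-Hochberg method over all tested genes, with a threshold of 0.05. The fit was tested on simulated data with independent noise, for the high dose against control after recovery. Of 100 genes changed by a log2 of 0.3, 46 were called, and of 100 changed by 0.6, 99 were, with 9 false calls. Smaller changes were not simulated. The plan counted Sco1 among the genes to be tested, but it lay below the filter. Values are means ± SD, and differences ± SE; counts of arrays beyond a group refer to its whole range in the direction of the difference.

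Groups came from sample titles. The 9 genes and all lists were chosen with earlier results of these data known. Each list was described by its counts, its median and up to 4 members of smallest p, and the genes most like Cox16 were the 5 of highest and 3 of lowest r. Alternatives changed the normalization, filter, probe set rule, samples fitted, blocks, array weights and covariates, and left out each array in turn. Promoter sequences and locations came from RefSeq tables of GRCm38.p6, which matched 7 and 9 of the 9 genes.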

Additional observations from a re-analysis of the deposited data

How the results depend on the processing

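Of 11 alternatives, those with array weights, filters, probe set means, only the groups compared and replicate blocks kept the counts of called genes among the 7 tested beside Cox16 within 1.5 times of those reported. A kept count did not always hold the same genes. With array weights, for recovery against exposure at the high dose, Cox19 was lost (0.12, limma, adjusted p = 0.062). Cox17 was called there instead, and lower (-0.28, 0.040). The count of genes past the threshold for recovery against exposure at the low dose, 4 as reported, was 2 after quantile normalization, 2 after median centring, 2 with cell marker means as covariates and 2 with the array median as a covariate, which was added after seeing the data. With cell marker means the count between the doses after exposure was 0 (reported 1) and that between collections in controls was 0 (reported 4). Among differences called in the main or the alternative fit, directions turned with cell marker means for recovery against exposure. These were Surf1 at the high dose (-0.042, limma adjusted p = 0.59), Cox18 at the high dose (-0.18, 0.024), Cox17 at the low dose (0.29, 0.031) and Cox11 at the low dose (-0.023, 0.87). The cause was not tested. A further 69 changes of sign over the 11 alternatives were in differences called in neither fit or in Cox16. Leaving out 1 array at a time, the count was 2 to 4 at the low dose and 1 to 5 in controls between collections, 3 at the high dose, 1 between the doses after exposure and 0 elsewhere.

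The difference of Cox16 from recovery controls, for which it was singled out, lay between -0.57 and -0.49 at the high dose and between -0.49 and -0.39 at the low dose; filters, probe set means and the choice of groups fitted leave this estimate as it is by construction. Same-numbered arrays showed little shared deviation (median r between -0.12 and 0.20 by pair of groups), though 7 of 15 low-dose pairs across collections exceeded 0.1. This cannot show whether a number marks the same mouse, and the labels do not say, so no pairing was used in the main fit. With the replicate block, as a fixed block, Cox16 gave -0.55 and -0.45, with a random block of dose and number (estimated correlation 0.021) -0.57 and -0.46, and neither block changed the count of the 7 other genes called in any comparison. Over all genes, the count for the high dose against control after recovery, 54, was 1 with cell marker means, 3 with a fixed replicate block and 427 with array weights, and 2 to 170 without 1 array. That for the high dose against control after exposure, 3, was 654 with cell marker means, and that for the low dose, 164, was 14 with them and 1406 with array weights. Dim probe sets, Sco1 among them, limit what can be seen.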
